A study of Mus musculus with 15 samples.

Results

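The Polycomb-like proteins of the mouse are encoded by 3 genes, Phf1, Mtf2 and Phf19, and their RNA was followed over all 15 arrays of a study of mouse embryonic stem (ES) cells. The 3 genes were chosen by name among the 25090 genes measured, and each was read by its probe with the highest mean signal. Total RNA (500 ng per sample) was labelled with Cy3 and hybridised alone to a 1-colour Agilent array. The ES cells carried a short hairpin RNA, either the control hairpin shCTR or the hairpin sh4, and were left without treatment or kept with retinoic acid, which is made from vitamin A and makes ES cells differentiate, at 1 µM for 72 hours. The groups were untreated shCTR (n = 4), untreated sh4 (n = 4), retinoic acid-treated shCTR (n = 4) and retinoic acid-treated sh4 (n = 3, replicates 1, 3 and 4). All cells, controls included, thus carried a hairpin. The labels give no strain, line or clone, no gene targeted by sh4 and no culture time for untreated cells, so the effect of retinoic acid and that of the time in culture cannot be told apart. The series title names Phf19. The replicates are called biological but nothing states separate cultures, so p-values measure the spread between these samples, which may be technical.

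Polycomb repressive complex 2 (PRC2) methylates histone H3 at H3K27 over silenced developmental genes. Its core is formed by EZH1 or EZH2 with EED, SUZ12 and RBBP4 or RBBP7, and a Polycomb-like subunit binds SUZ12 and helps bring the complex to unmethylated CpG islands. Each Polycomb-like protein has a Tudor domain that reads methylated H3K36, a histone mark of transcribed genes, followed by PHD fingers and a winged-helix domain that contacts CpG-rich DNA. MTF2 is known to help place PRC2 at its targets in ES cells, and PHF19 has been tied to silencing of pluripotency genes during differentiation.

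The array read Phf19 with 1 probe and Phf1 and Mtf2 with a pair of probes each. The first 30 of the 60 bases of each probe are shown because they fix which stretch of transcript a value comes from. Coordinates are those of the files on the build mm9; no annotation of that build was used here, so exon and UTR are not stated. The Phf19 probe A_51_P204442 lies at chr2:34749588-34749646 on the minus strand, a span 1 base shorter than the probe. The Mtf2 probe used, A_51_P261001, lies at chr5:108537924-108537983 on the plus strand, and the second, A_55_P2022624, starts 1879 bases upstream of it at chr5:108536045-108536104. The Phf1 probe used, A_51_P220260, lies at chr17:27074715-27074774 on the plus strand, and the second, A_55_P1954998, starts 1479 bases upstream in the genome and 936 bases upstream in the transcript, at chr17:27073236-27073295.
Phf19, A_51_P204442: gtcaaatttgtggcttcctgttggcttcag
Mtf2, A_51_P261001: atcatggtggttcacatggctctgatgttc
Mtf2, A_55_P2022624: gggttttattatctttcttagaaaaacaaa
Phf1, A_51_P220260: tgttacagcttttgagataattttttaaga
Phf1, A_55_P1954998: atttcagggagggagattaaaaagcgaaaa

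The promoters are shown because Phf19 and Mtf2 fell together in retinoic acid while Phf1 did not. All 3 genes matched RefSeq (GRCm38.p6), Mtf2 with a second start. The 250 bases before the first listed start lie at chr2:34913977-34914226 (minus strand) for Phf19, chr5:108065424-108065673 (plus strand) for Mtf2 and chr17:26932877-26933126 (plus strand) for Phf1. Capitals mark matches, on either strand, to motifs picked after the sequences were seen.
Phf19: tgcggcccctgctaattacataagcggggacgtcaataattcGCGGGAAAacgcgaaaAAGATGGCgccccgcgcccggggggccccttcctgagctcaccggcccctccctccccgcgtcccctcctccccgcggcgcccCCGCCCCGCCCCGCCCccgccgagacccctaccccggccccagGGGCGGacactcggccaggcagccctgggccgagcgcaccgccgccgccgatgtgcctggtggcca
Mtf2: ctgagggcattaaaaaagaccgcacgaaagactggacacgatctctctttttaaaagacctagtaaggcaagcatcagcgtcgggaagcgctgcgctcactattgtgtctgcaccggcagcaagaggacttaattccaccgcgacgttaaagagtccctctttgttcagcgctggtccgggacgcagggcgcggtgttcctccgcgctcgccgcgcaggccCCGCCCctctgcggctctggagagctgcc
Phf1: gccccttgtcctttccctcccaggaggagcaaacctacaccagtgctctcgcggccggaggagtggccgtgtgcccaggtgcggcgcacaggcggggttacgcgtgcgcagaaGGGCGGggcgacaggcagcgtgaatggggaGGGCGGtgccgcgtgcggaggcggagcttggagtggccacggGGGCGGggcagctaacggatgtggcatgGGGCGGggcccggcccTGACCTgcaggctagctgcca

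All 3 windows were rich in CpG. Over the 300-base RefSeq window Phf19 held 38 CpG, more than 95.05% of the 32851 mouse promoter windows, Mtf2 held 30 (more than 88.3%) and Phf1 held 24 (more than 80.0%), against a median of 7. The window of the second Mtf2 start held 2 CpG and 1 CCAAT box. The Phf19 window had 1 match to TTTCCCGC, a letter string of E2F sites, whose first base lay 208 bases before the start, and 1 to AAGATGGC, a string of YY1 sites, at 192 bases. These strings occurred in 0.895% and 1.56% of all windows. The GC box GGGCGG occurred 4 times in Phf19, where 3 copies overlap by 1 base, 4 times in Phf1 and 1 time in Mtf2, against 32.7% of windows with at least 1 copy. Phf1 also held the nuclear receptor half-site AGGTCA, found in 14.02% of windows, 21 bases before the start. The octamer ATGCAAAT had no match in the 4 windows. A match describes letters in this window and is not evidence of a bound site.

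Levels below are log2 signals relative to the 75th percentile of each array, in the order of the replicates. A gene "rose" or "fell" only where the adjusted p was under 0.05 in limma's test over all 25090 genes, and changes are log2 fold changes ± standard error. The share of probes well above background was 73.8% to 79.4% over the arrays, and 0 spots were saturated. The arrays lay on 4 slides, each with 1 array per group except the last, which had none of retinoic acid-treated sh4. The number of arrays limits the precision. The scanner software rated 3 arrays for evaluation: untreated shCTR replicate 2, untreated sh4 replicate 3 and retinoic acid-treated sh4 replicate 1.

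Phf19 was lower with sh4 than with shCTR, lower after retinoic acid than before, and its 4 group levels did not overlap. In untreated shCTR the levels were −0.94, −0.99, −0.72 and −0.71 (mean −0.84 ± 0.14, SD, n = 4). In untreated sh4 they were −2.63, −2.55, −2.53 and −2.56 (−2.57 ± 0.04, n = 4). The sh4 arrays lay within a narrow band and far below every control array. After retinoic acid shCTR read −3.03, −3.08, −3.07 and −2.82 (−3.00 ± 0.12, n = 4) and sh4 −3.91, −3.99 and −3.73 (−3.88 ± 0.14, n = 3). The processed signal went from 815 to 971 intensity units in untreated shCTR to 99.3 to 142 in treated sh4, and the probe was well above background on all 15 arrays.

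**Figure D1:**
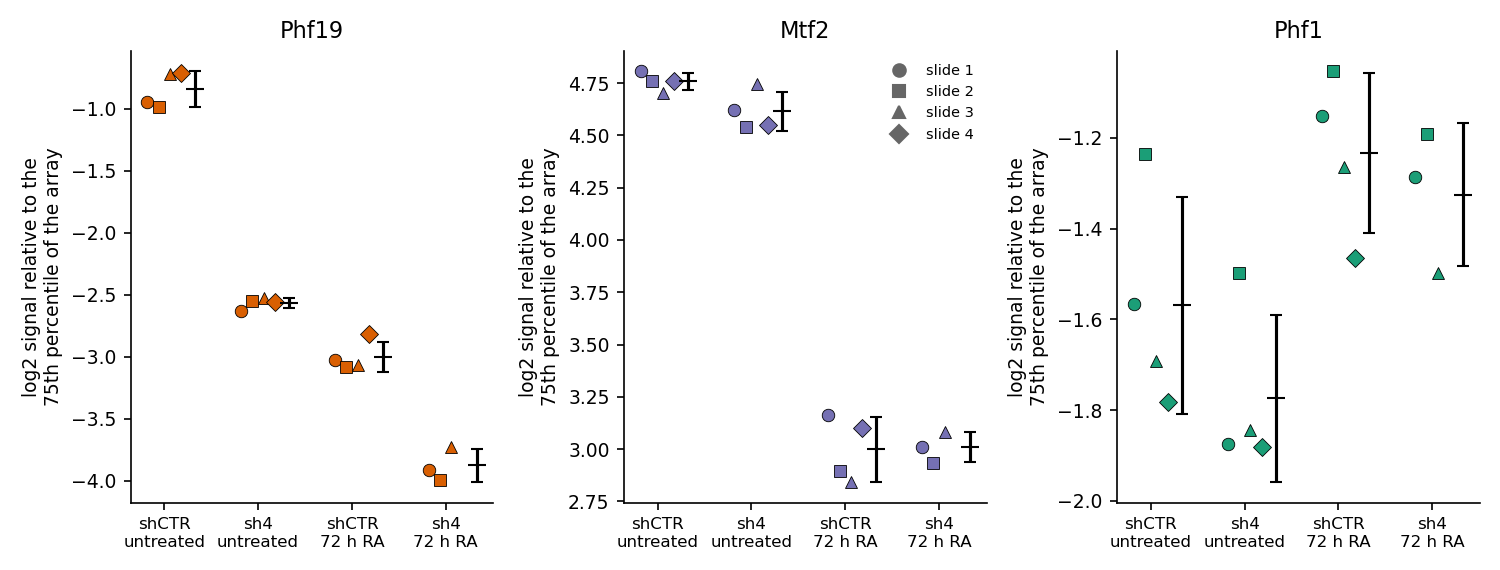
Log2 signal relative to the 75th percentile of the array (vertical axis) of Phf19, Mtf2 and Phf1 in the 4 groups (horizontal axis), with 1 point per array, the shape giving the slide, and bars giving mean ± SD; the vertical axes differ in range. Phf19 forms 4 separate levels from −0.84 to −3.88, Mtf2 an upper and a lower level, and Phf1 moves by less and is highest on slide 2 in every group.

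The hairpin sh4 left 30.2% of the Phf19 level in untreated cells (−1.73 ± 0.09, limma adjusted p = 7.1e-09; within slides −1.69, −1.57, −1.81 and −1.85) and 54.4% in retinoic acid (−0.88 ± 0.09, adjusted p = 1.8e-05; within slides −0.88, −0.91 and −0.66). The second value was −0.57 with normexp background correction and −0.55 in the authors' deposited log2 values. The hairpin effects differed by 0.85 ± 0.13 (interaction, adjusted p = 3.3e-04; within slides 0.81, 0.65 and 1.15). Retinoic acid left 22.4% of Phf19 in shCTR (−2.16 ± 0.09, adjusted p = 6.7e-11), a fall exceeded by 2.97% of genes, and 40.3% in sh4 (−1.31 ± 0.09, adjusted p = 3.4e-08), exceeded by 7.31%. The order of levels was untreated shCTR, untreated sh4, treated shCTR and treated sh4, and the middle neighbours differed as well: treated control cells stood −0.43 ± 0.09 from untreated sh4 cells (adjusted p = 6.0e-04). In these bulk samples fewer cells of a type and less RNA per cell cannot be told apart.

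Mtf2, whose protein is the Polycomb-like subunit best known from ES cells, fell in retinoic acid with either hairpin, and no difference between hairpins passed the test. Its levels were 4.81, 4.76, 4.70 and 4.76 in untreated shCTR (4.76 ± 0.04, n = 4) and 4.62, 4.54, 4.74 and 4.55 in untreated sh4 (4.61 ± 0.09, n = 4). These groups overlap through sh4 replicate 3. After retinoic acid Mtf2 read 3.16, 2.89, 2.84 and 3.099 for shCTR (3.00 ± 0.16, n = 4) and 3.01, 2.94 and 3.08 for sh4 (3.01 ± 0.07, n = 3), and the sh4 values all lay inside the range of the control values. Retinoic acid left 29.5% in shCTR (−1.76 ± 0.08, limma adjusted p = 2.0e-10), a fall exceeded by 4.57% of genes, and 32.9% in sh4 (−1.60 ± 0.08, adjusted p = 1.6e-09), exceeded by 4.92%. The hairpin difference was −0.14 ± 0.08 in untreated cells (adjusted p = 0.22, 95% interval −0.31 to 0.03) and 0.01 ± 0.08 in retinoic acid (adjusted p = 0.97, interval −0.17 to 0.19). The interaction was 0.15 ± 0.12 (adjusted p = 0.45). In the order of levels the 2 untreated groups therefore did not differ beyond their spread, nor did the 2 treated ones.

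Phf1, whose Tudor domain reads the same H3K36 mark, moved least of the 3 in retinoic acid, where it rose. Its levels were −1.57, −1.24, −1.69 and −1.78 in untreated shCTR (−1.57 ± 0.24, n = 4) and −1.88, −1.50, −1.84 and −1.88 in untreated sh4 (−1.77 ± 0.18, n = 4). In retinoic acid they were −1.15, −1.05, −1.27 and −1.46 for shCTR (−1.23 ± 0.18, n = 4) and −1.29, −1.19 and −1.50 for sh4 (−1.33 ± 0.16, n = 3). Untreated and treated ranges overlap in shCTR, and touch within 0.01 log2 units in sh4. The array on slide 2 was the highest of its group in all 4 groups. Retinoic acid raised Phf1 1.26-fold in shCTR (0.34 ± 0.13, limma adjusted p = 0.043; within slides 0.41, 0.18, 0.43 and 0.32) and 1.37-fold in sh4 (0.45 ± 0.14, adjusted p = 0.016; within slides 0.59, 0.31 and 0.35).

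With the slide as a block these rises had adjusted p = 7.7e-04 and 6.3e-04. The call in shCTR was lost with median scaling (0.13, adjusted p = 0.25), quantile normalisation (0.23, adjusted p = 0.11), normexp (0.26, adjusted p = 0.14) and the authors' deposited log2 values (0.17, adjusted p = 0.30), without the filter on dim probes (0.34, adjusted p = 0.057) and in a fit of the compared groups alone (0.34, adjusted p = 0.068). It was also lost when any of 10 of the 15 arrays was left out: retinoic acid-treated sh4 replicate 1, treated shCTR replicates 1, 2 and 3, untreated sh4 replicates 1, 3 and 4 and untreated shCTR replicates 1, 3 and 4 (values 0.26 to 0.35, adjusted p up to 0.13). The call in sh4 was lost without treated sh4 replicate 3 (0.38, adjusted p = 0.068). All of these fits with lost calls were run without the slide as a block. The median of all genes moved by −0.12 in both retinoic acid comparisons, and by −0.33 and −0.26 with median scaling. Phf1 stood 0.46 above that median in shCTR and 0.57 above it in sh4. Both scalings subtract 1 value per array, so these distances are the same under either by construction. With quantile normalisation they were 0.38 and 0.48. The hairpin difference of Phf1 was −0.20 ± 0.13 in untreated cells (adjusted p = 0.33, 95% interval −0.50 to 0.09; within slides −0.31, −0.26, −0.15 and −0.10), and with the slide as a block it passed the test (−0.20 ± 0.06, adjusted p = 0.029). In retinoic acid it was −0.09 ± 0.14 (adjusted p = 0.78; with the slide as a block −0.15 ± 0.07, adjusted p = 0.15). The interaction was 0.11 ± 0.20 (adjusted p = 0.81). In the order of levels treated sh4 and untreated shCTR are neighbours and differed by 0.24 ± 0.14 (adjusted p = 0.17; with the slide as a block 0.18 ± 0.07, adjusted p = 0.040), and treated shCTR stood 0.54 ± 0.13 above untreated sh4 (adjusted p = 0.0030).

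**Figure D2:**
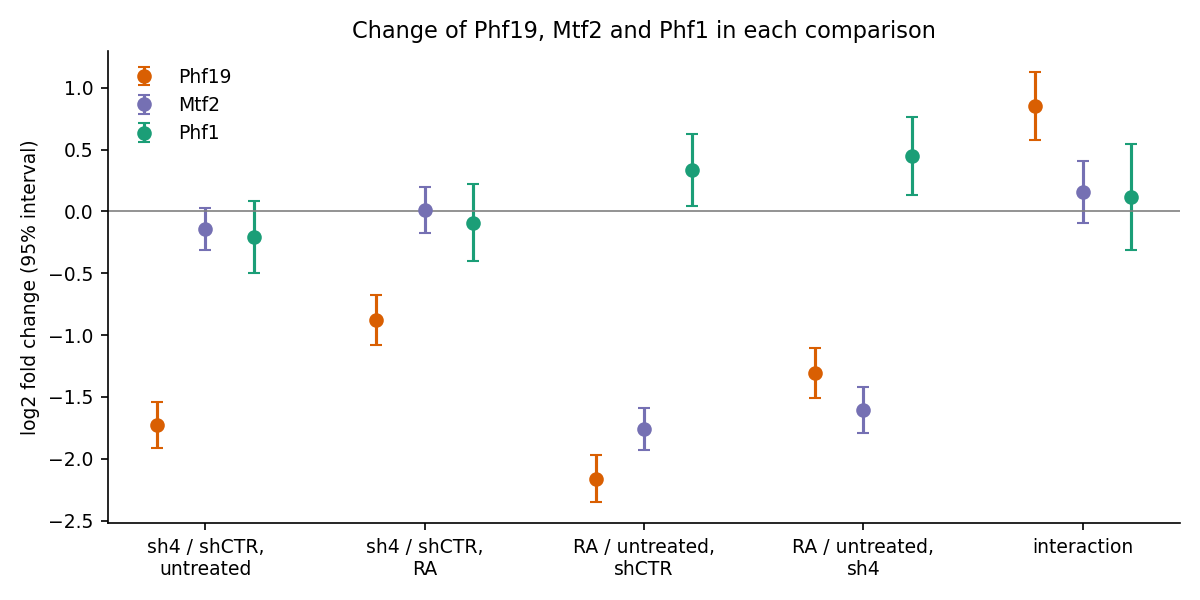
Log2 fold change with its 95% interval (vertical axis) of each gene in the 5 comparisons (horizontal axis; RA is retinoic acid, and the interaction is the hairpin effect in retinoic acid minus that in untreated cells). The interval lies off 0 for Phf19 in all 5, for Mtf2 in both retinoic acid comparisons with values of −1.76 and −1.60, and for Phf1 in both with values of 0.34 and 0.45.

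The counts over the 3 genes are those of the fit without blocks. For the hairpin 1 passed the test in untreated cells, where 28.5% of all genes did, and 1 in retinoic acid, where 21.1% did. With the slide as a block Phf1 passed as well in untreated cells. All 3 passed for retinoic acid in shCTR (62.5% of all genes) and in sh4 (58.6%), and 1 for the interaction (20.4%). With shares this high, passing in the retinoic acid comparisons does not set the 3 genes apart.

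Within-array differences compared the changes of one member with another. A constant shift of a whole array on the log2 scale cannot alter them, but quantile normalisation and background correction can. Of 12 such comparisons, 10 had groups of arrays that did not overlap and reached the smallest p this design allows (exact two-sided permutation test, p = 0.0286, adjusted over the 12 to 0.0343). The 12 are not independent, because the difference of any pair follows from those of the other pairs. How often other pairs of genes part in this way was not computed, so the count does not set the members apart. Phf1 minus Phf19 rose by 1.52 with sh4 in untreated cells, from −0.73 ± 0.37 (SD, n = 4) to 0.79 ± 0.18 (n = 4), and by 0.79 in retinoic acid. Mtf2 minus Phf19 rose by 1.58 and 0.89 in these comparisons; the second value was 0.53 with normexp and with the authors' deposited log2 values, and 0.73 with the mean over all probes of a gene (exact permutation test, adjusted p = 0.34). Under sh4 Phf19 thus fell relative to both other members on the same arrays. With normexp the 0.79 became 0.53 (exact permutation test, adjusted p = 0.076), and with the authors' deposited log2 values it was also 0.53 (exact permutation test, adjusted p = 0.17).

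With the main scaling Mtf2 and Phf19 fell unequally in retinoic acid, in an order that depended on the hairpin. The difference between hairpins was not tested for this balance. Phf19 fell further than Mtf2 in shCTR, by 0.40 (5.599 ± 0.173 to 5.998 ± 0.132), and Mtf2 fell further than Phf19 in sh4 (change of the difference −0.29, 7.18 ± 0.09 to 6.89 ± 0.07). The first difference was 0.11 with normexp (exact permutation test, adjusted p = 0.27), and the second −0.75 with normexp (exact permutation test, adjusted p = 0.043) and −0.014 with the mean over all probes of a gene (exact permutation test, adjusted p = 1.0). With quantile normalisation Phf19 fell further than Mtf2 with either hairpin (−2.28 against −1.51 in shCTR, −1.45 against −1.36 in sh4). The order then no longer depended on the hairpin, and the within-array test was not run on those values. Phf1 gained on Mtf2 in retinoic acid by 2.09 in shCTR and 2.05 in sh4. With sh4 the difference of Phf1 and Mtf2 moved by −0.06 in untreated cells and −0.10 in retinoic acid, and the arrays overlapped (exact permutation test, p = 0.60 for both).

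**Figure D3:**
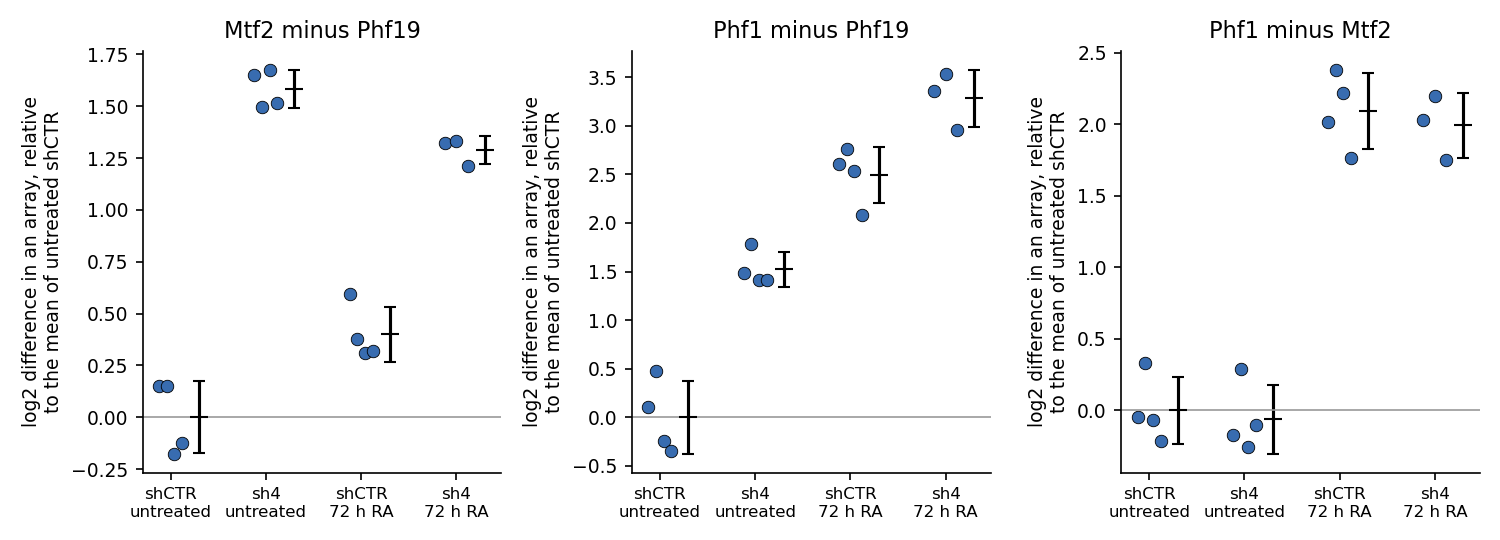
Log2 difference of a pair of genes on the same array, relative to the mean of untreated shCTR (vertical axis), in the 4 groups (horizontal axis), with 1 point per array and bars giving mean ± SD. Mtf2 minus Phf19 is highest in untreated sh4 (1.58 above untreated shCTR), Phf1 minus Phf19 climbs over the 4 groups, and Phf1 minus Mtf2 parts treated from untreated arrays by 2.09 in shCTR and 2.05 in sh4.

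The second probes gave a dimmer view of Phf1 and Mtf2. The second Phf1 probe read 13.04 to 46.94 intensity units and rose in retinoic acid by 0.82 ± 0.19 in shCTR (limma over probes, adjusted p = 0.0015) and 0.67 ± 0.20 in sh4 (adjusted p = 0.010), in the direction of the first probe. Its hairpin difference in retinoic acid was −0.38 ± 0.20 (limma adjusted p = 0.23), and −0.35 ± 0.11 with the slide as a block (adjusted p = 0.032). The second Mtf2 probe read 20.2 to 291 units and split by slide: slides 1 and 2 stood 1.72 log2 units above slides 3 and 4, a shift that 0.571% of probes exceeded and that compares with a median of 0.16. Its changes in retinoic acid were −1.06 ± 0.66 in shCTR (adjusted p = 0.18) and −1.04 ± 0.71 in sh4 (adjusted p = 0.23). With the slide as a block they were −1.06 ± 0.26 (adjusted p = 0.0035) and −1.30 ± 0.28 (adjusted p = 0.0021). This probe, gggttttattatctttcttagaaaaacaaa in its first 30 bases, is 51.7% A over its length, with 23.3% G and C, whereas the Mtf2 probe used holds 35.0% G and C and moved by −0.02 between the slide pairs. The part of base composition in the slide split was not tested.

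**Figure D4:**
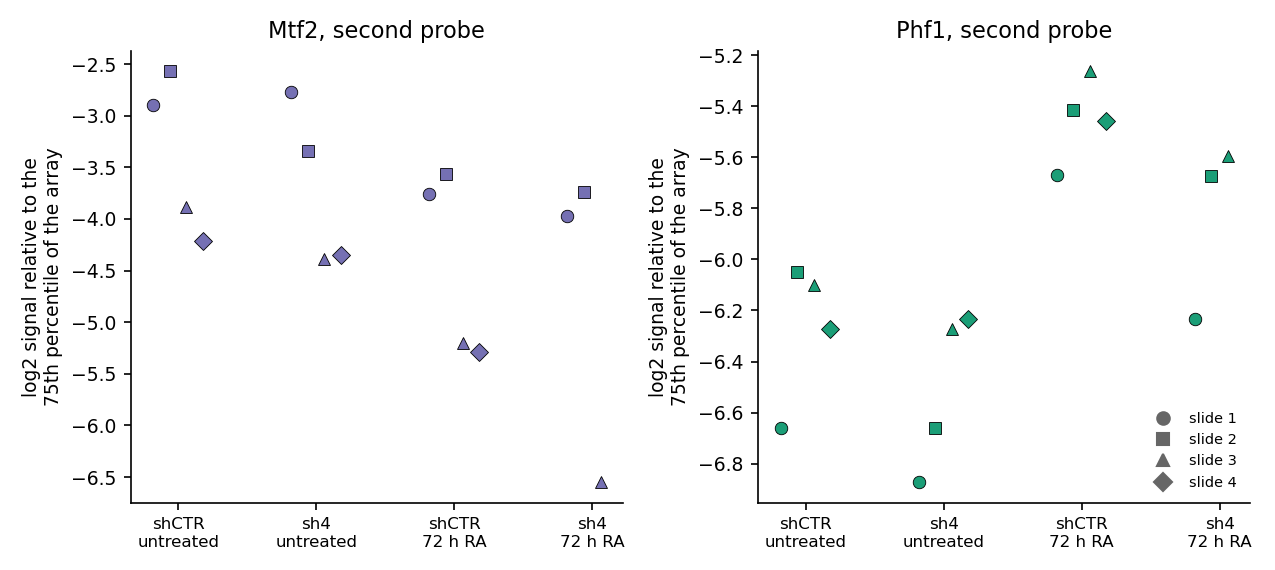
Log2 signal relative to the 75th percentile of the array (vertical axis) of the second Mtf2 and second Phf1 probe in the 4 groups (horizontal axis), 1 point per array with the shape giving the slide. In every group the Mtf2 points of slides 1 and 2 lie above those of slides 3 and 4, and within a slide they are lower in retinoic acid; all 4 shCTR points of Phf1 in retinoic acid lie above the 4 untreated ones.

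The other PRC2 subunits mostly fell with Mtf2 and Phf19 in retinoic acid. Of 11 listed genes, 8 fell and 2 rose in shCTR, with a median of −0.87 against −0.12 over all genes, of which 33.5% fell and 28.9% rose. In sh4 9 fell and 2 rose (median −1.01; 31.6% and 27.1% of all genes). The falls in shCTR were led by Aebp2 (−1.93) and Jarid2 (−1.82), which encode the accessory subunits of the alternative PRC2.2 form, and by the core gene Eed (−1.59). Epop, an accessory subunit that joins complexes with Polycomb-like proteins, fell by 1.42, Suz12 by 1.29 and the methyltransferase genes Ezh2 and Ezh1 by 0.87 and 0.81. In sh4 these 7 changed by −1.61, −1.77, −1.49, −1.18, −1.11, −0.66 and −1.01 in the same order. The −1.18 of Epop was −1.42 without untreated sh4 replicate 1. The histone-binding gene Rbbp7 rose by 1.08 in shCTR and 0.93 in sh4, and Lcor, whose locus also encodes a PALI subunit, by 1.63 and 1.56. Rbbp4 fell by 0.35 and 0.32, calls that were lost in 5 and 7 of the 15 fits that left out 1 array, with adjusted p up to 0.062 and 0.14, and the second also with the slide as a block. Lcorl stood at −0.02 in shCTR and fell by 0.42 in sh4 (interaction −0.40, limma adjusted p = 0.021, and 0.061 without treated sh4 replicate 1). With normexp this interaction was −0.29 (limma adjusted p = 0.24), and the call was also lost with median scaling, quantile normalisation, the authors' deposited log2 values and without the 3 arrays rated for evaluation. It was the 1 listed gene past the threshold for the interaction, where 10.3% of all genes passed upwards and 10.1% downwards.

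With sh4 in untreated cells 2 PRC2 genes rose and 2 fell (14.3% and 14.2% of all genes; list median −0.08, all genes 0.02). Suz12, the subunit that Polycomb-like proteins bind, read 2.10, 1.99, 1.90 and 1.93 in shCTR and 1.51, 1.37, 1.37 and 1.41 in sh4, with no overlap (−0.56 ± 0.07, limma adjusted p = 4.2e-05). Epop fell by 0.74 ± 0.18 (adjusted p = 0.0061). Its untreated sh4 replicate 1 read 4.79, against 5.70, 5.74 and 5.77 in the other replicates, and without that array the change was −0.50. Lcorl and Ezh1 rose by 0.45 ± 0.08 (adjusted p = 4.2e-04) and 0.33 ± 0.06 (adjusted p = 6.8e-04). Without untreated sh4 replicate 3, Rbbp7 also passed (0.44, adjusted p = 0.0049), as did Aebp2 with the slide as a block (−0.19, adjusted p = 0.046). In retinoic acid Suz12 alone of the 11 fell (−0.39 ± 0.08, adjusted p = 0.0028; list median 0.05, all genes 0.04; 10.3% of all genes fell). With normexp its value was −0.31 (limma adjusted p = 0.15). Epop also passed there without untreated sh4 replicate 1 (adjusted p = 4.7e-04).

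**Figure D5:**
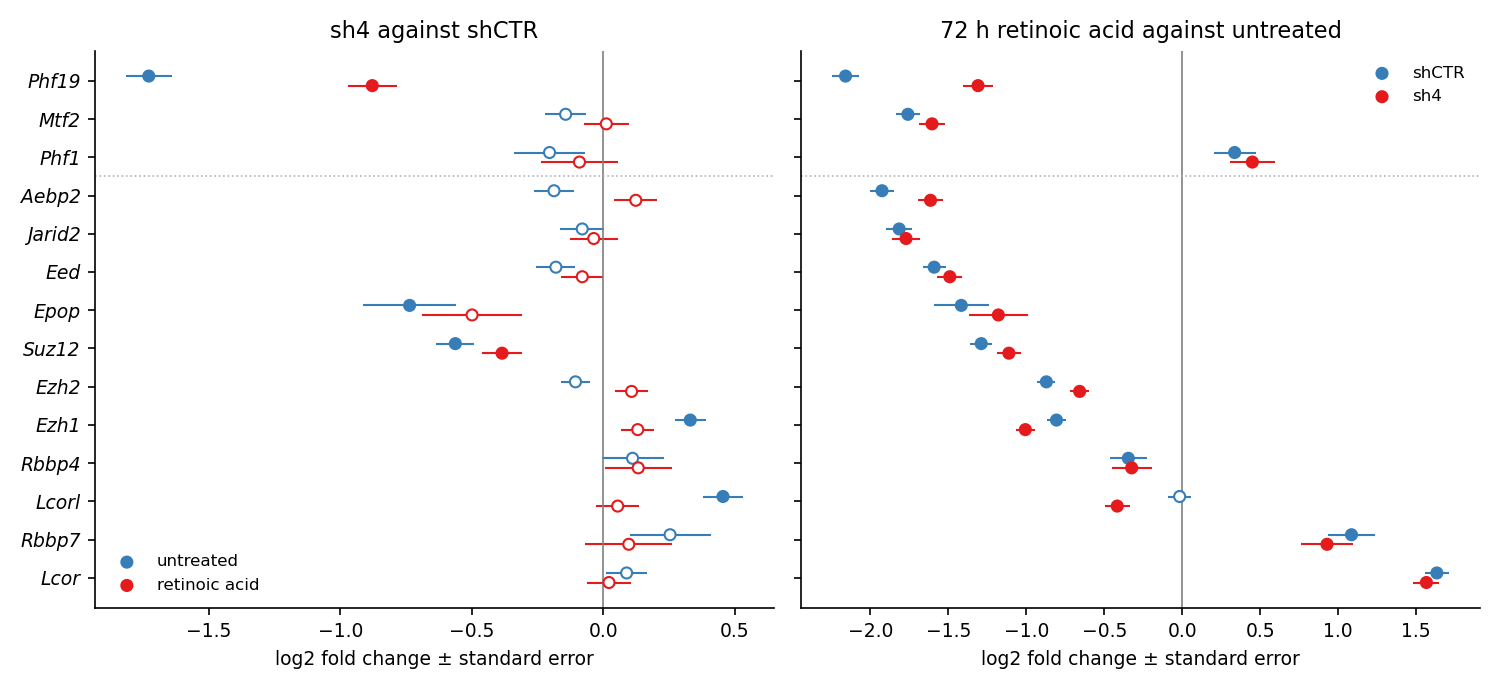
Log2 fold change ± standard error (horizontal axis) of the 3 Polycomb-like genes, above the dotted line, and the 11 other PRC2 genes (vertical axis), for sh4 against shCTR on the left and for retinoic acid against untreated cells on the right; filled points have an adjusted p under 0.05. In retinoic acid in shCTR Phf19 (−2.16), Aebp2 (−1.93), Jarid2 (−1.82) and Mtf2 (−1.76) form the lower end, while in sh4 Phf19 (−1.31) lies above Jarid2 (−1.77), Aebp2 (−1.61), Mtf2 (−1.60) and Eed (−1.49), and Phf1, Rbbp7 and Lcor lie above 0 with either hairpin.

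Enzymes and readers of the H3K36 mark that the Tudor domain binds changed in both directions in retinoic acid, where 28.9% of all genes rose and 33.5% fell in shCTR and 27.1% rose and 31.6% fell in sh4. Of 7 writers of H3K36 methylation 2 rose and 2 fell in retinoic acid in shCTR, and 3 rose and 2 fell in sh4. Nsd2, a dimethyltransferase, rose by 2.34 ± 0.07 (limma adjusted p = 2.6e-12) and 1.75 ± 0.07 (adjusted p = 1.4e-10), while its relative Nsd1 fell by 1.25 and 1.75. Nsd2 also rose with sh4 in untreated cells, by 0.62 ± 0.07 (adjusted p = 1.0e-05). Of 7 listed erasers 1 rose and 5 fell in shCTR, and 1 rose and 3 fell in sh4. The 1 that rose was Kdm4d (1.01 and 0.97), whose protein is known for demethylating H3K9 rather than H3K36. The demethylase gene Kdm4c was lowest (−2.087 and −2.004). Of 10 readers 2 rose and 4 fell with either hairpin. Dnmt3b, a DNA methyltransferase whose PWWP domain reads H3K36 methylation, rose with sh4 in untreated cells by 1.29 ± 0.06 (adjusted p = 7.2e-09) and fell with it in retinoic acid by 0.43 ± 0.07 (adjusted p = 5.7e-04), an interaction of −1.72 ± 0.09 (adjusted p = 6.0e-08).

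In untreated cells, where 14.3% of all genes rose and 14.2% fell, sh4 was followed by 3 rises and no fall among the writers. The counts were 1 and 1 among the listed erasers, the rise being Kdm4d (0.50), and 1 and 0 among the readers. With median scaling the counts for writers, erasers and readers were 1 and 0, 0 and 0, and 1 and 0. Among treated cells the counts were 1 and 0, 3 and 0 (with Kdm4d at 0.45), and 2 and 1. Of all genes 10.8% rose and 10.3% fell there, and none of the genes of these lists passed with median scaling. Among 7 CXXC proteins, which also bind unmethylated CpG islands and share Kdm2a and Kdm2b with the erasers, none rose and 5 fell in retinoic acid in shCTR (28.9% and 33.5% of all genes) and none rose and 4 fell in sh4 (27.1% and 31.6%), led by the DNA demethylase gene Tet1 (−3.35 and −3.11). Of the H3K27 demethylase genes Kdm6a and Kdm6b, Kdm6b rose in retinoic acid in sh4 (0.73 ± 0.11, limma adjusted p = 5.4e-05) and neither passed in shCTR. Kdm6b also fell with sh4 in untreated cells (−0.30 ± 0.10, limma adjusted p = 0.042), and its interaction was 0.57 ± 0.15 (limma adjusted p = 0.015). Both of these calls were lost with median scaling and with normexp. The medians of these 5 lists over the hairpin comparisons lay between −0.13 and 0.17. In retinoic acid the medians in shCTR and sh4 were −0.08 and −0.08 for writers, −0.56 and −0.21 for erasers, −0.14 and −0.26 for readers, −0.45 and −0.30 for CXXC proteins and −0.05 and 0.11 for the H3K27 demethylases, against −0.12 for all genes. The writers' median became 0.13 and 0.09 and the readers' median in sh4 0.0067 with quantile normalisation, and the demethylases' median in sh4 −0.03 with median scaling.

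Markers of cell state also differed between the groups, and their association with the values above was not computed. The summed level (relative to the 75th percentile, linear scale) of 10 ES cell markers, all well above background in every group, was 336 to 412 in untreated shCTR, 311 to 348 in untreated sh4, 97.2 to 105 in treated shCTR and 53.3 to 63.9 in treated sh4. With sh4 in untreated cells, where 14.3% of all genes rose and 14.2% fell, 3 ES cell markers fell and none rose. Of 8 trophectoderm markers 8 rose in that comparison, and their sum was 6.11 to 7.71 in shCTR, where Elf5 was not well above background, 74.3 to 84.3 in sh4, and 294 to 319 and 268 to 327 after retinoic acid. Of 8 endoderm markers none rose and 5 fell there, and the sums were 0.709 to 0.798 and 0.298 to 0.323 in untreated shCTR and sh4, with Ttr not well above background in either and Afp not in sh4, and 24.5 to 27.5 and 8.68 to 9.78 after retinoic acid. Of 8 retinoic acid response genes 3 rose and 4 fell, and the sums were 29.7 to 38.5, 8.59 to 12.2, 142 to 195 and 198 to 240 in the same order, with Hoxb1 not well above background in untreated cells. Of 8 fibroblast (feeder cell) markers, Col3a1, Dcn, Lum and Postn were not well above background in untreated shCTR, nor was Postn in untreated sh4, and the sums were 2.47 to 2.81, 0.994 to 1.13, 6.87 to 8.51 and 8.97 to 9.24. With sh4 in untreated cells 3 of these 8 rose and 3 fell (median −0.039). The 3 that rose, Dcn (3.01), Col3a1 (2.11) and Lum (1.35), are named after their values were seen. Their changes start from levels not well above background in untreated shCTR. With normexp 0 of the 8 rose and 3 fell in this comparison (median −0.15). Of 8 neural ectoderm markers 2 rose and 2 fell, and the sums were 4.8 to 6.4, 3.1 to 4.0, 4.6 to 5.2 and 5.4 to 6.6. The part of these cell types in the changes of Phf19, Mtf2, Phf1 and the lists above was not tested.

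The genes nearest to each member in profile were found by the root mean square difference of centred log2 values over the 15 arrays, which share slides and treatment. The search and its medians covered only genes with a probe matched to RefSeq and a plain symbol. The nearest to Phf19 were Rec114, a meiotic recombination gene (0.11), the kallikrein gene Klk13 (0.15) and Manba, which encodes lysosomal beta-mannosidase (0.18). The median over the genes searched was 1.13. Rec114 stood at 1.53, −0.05, −0.45 and −1.37 around its mean in untreated shCTR, untreated sh4, treated shCTR and treated sh4. For Mtf2 they were Mterf1b (0.09), the melanosome gene Pmel (0.10) and the Wnt receptor gene Fzd9 (0.10), against a median of 0.89. Pmel stood at 0.79 and 0.82 in untreated and −0.93 and −0.91 in treated shCTR and sh4. For Phf1 they were Tmem14c (0.11), Svbp (0.13) and Rpgrip1l (0.13), against a median of 0.52; a member with small changes has many near profiles.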

How the data were processed

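RNA of 15 samples was measured, 1 array each. Feature Extraction 10.7.3.1 made, per the file headers, the deposited processed intensity of each spot by subtracting a background; mean and local background intensity were deposited too. The authors' deposited log2 values, whose making no source used here gives, served as an alternative. Spots marked as outliers were left out, spots of a probe averaged, and each array's 75th percentile (1529 to 1938 intensity units) subtracted on the log2 scale. Probes well above background on 3 arrays of a group were kept, and the probe with the highest mean stood for its gene (25090 genes). Symbols were updated through RefSeq (26055 probes matched).

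Differences were tested with limma 3.58.1 (R 4.3.3) in 1 model of 4 groups, with Benjamini-Hochberg adjustment over all genes and a threshold of 0.05. On simulated data the test recovered 72 of 100 changes of 1 log2 unit and 93 of 100 of 2 log2 units, so real changes can be missed. The simulated noise was drawn independently for each array and did not include the correlation of arrays on a slide. Only these changes were placed among the 25090 genes, in untreated sh4, and no retinoic acid change was simulated. The real comparisons called far more genes, 20.4% to 62.5%. The simulated counts therefore do not give the share of changes recovered in the real comparisons. The main model did not pair arrays by replicate number, which mostly coincides with the slide. The alternatives changed background correction, scaling, filters, blocks, probe choice and arrays. The genes named are the 3 members, the PRC2 list, the largest rise and fall past the threshold in the other lists, though some of these are left out, and the 3 nearest profiles. Members and lists were chosen with earlier results of these data known. The contrasts between neighbouring levels, the fit over probes and the fit without the 3 arrays rated for evaluation were added after seeing the data.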

Additional observations from a re-analysis of the deposited data

Results flagged for a closer look

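The hairpin effect on Phf19 differed between treatments by 0.85 on the log2 scale in the interaction test (limma adjusted p = 3.3e-04), with −1.73 in untreated cells and −0.88 in retinoic acid.

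Phf1 in untreated sh4 had 1 array apart from the others: replicate 2 read −1.50 and the other three −1.88, −1.84 and −1.88, so that the gap took 0.902 of the range. Of 15 groups of 4 arrays examined over the 5 probes, 1 was apart in this way, and chance gives about 1 in 20.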

How the results depend on the processing

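For the 3 genes, 373 values kept their direction and side of the threshold, 18 lost the call, 2 gained it and 9 changed sign. Every Phf19 change, and the retinoic acid changes of Mtf2, kept their call under every alternative run. Uncalled values changed sign for Mtf2 with sh4 in retinoic acid (normexp −0.037, deposited log2 values −0.023, replicate block −0.0087, mean over probes −0.15) and for the Phf1 interaction (mean over probes −0.016, without the 3 arrays rated for evaluation −0.040). Phf1 with retinoic acid in shCTR lost its call at 0.26 (normexp), 0.23 (quantile), 0.13 (median scaling), 0.17 (deposited values), 0.34 (no filter) and 0.34 (compared groups only), and in sh4 without the 3 rated arrays at 0.41. These Phf1 fits were run without the slide block. The cause of the lost calls was not tested.

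Same-numbered arrays correlated over 0.1 in 18 of 21 pairs (lowest r −0.53), and same-slide arrays in 21 of 21. Of the same-numbered pairs 15 also shared a slide, and all 15 were over 0.1. Of the 6 on different slides 3 were over 0.1 (r from −0.53 to 0.56). With the replicate block, as with the slide block, Phf1 in untreated cells passed for sh4 at −0.20. Leaving out 1 array gave −0.042 to 0.065 for Mtf2 with sh4 in retinoic acid, and for Phf1 with retinoic acid 0.26 to 0.45 in shCTR and 0.38 to 0.54 in sh4.

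Genes called numbered 7142, 5302 and 5110 for sh4 untreated, sh4 in retinoic acid and the interaction; normexp gave 4622, 3355 and 3011, and median scaling 3295 and 2971 for the last 2. PRC2 genes called numbered 1 in each of the last 2 comparisons. Normexp and the deposited values each gave 0 and 0. For the interaction quantile normalisation, median scaling and leaving out the rated arrays gave 0, the slide block 2 and the mean over probes 3; for sh4 in retinoic acid the fit of compared groups gave 2. Leaving out 1 array gave 1 to 2 and 0 to 2.

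Within-array differences lost their call for Phf1 minus Phf19 with sh4 in retinoic acid (normexp 0.53, deposited values 0.53), Mtf2 minus Phf19 with retinoic acid in shCTR (normexp 0.11) and, with the mean over probes, Mtf2 minus Phf19 with sh4 in retinoic acid (0.73) and with retinoic acid in shCTR (0.75) and sh4 (−0.014). Phf1 minus Mtf2, never called with sh4, changed sign at 0.011 (untreated, mean over probes) and 0.0011 (in retinoic acid, deposited values). Leaving out 1 array gave adjusted p of 0.0343 to 0.12 for the 10 called differences (exact permutation test). Without any 1 treated sh4 array none of the 10 could pass, because too few arrangements of the arrays remain for the test and its adjustment. The calls lost there follow from the number of arrays and do not show that the differences depend on an array. The 10 differences kept their sign whichever array was left out. For sh4 untreated, sh4 in retinoic acid and retinoic acid in shCTR and sh4 the ranges were 1.41 to 1.68, 0.65 to 0.95, 2.38 to 2.65 and 1.63 to 1.92 for Phf1 minus Phf19, 1.53 to 1.63, 0.86 to 0.95, 0.34 to 0.45 and −0.32 to −0.26 for Mtf2 minus Phf19, and −0.18 to 0.049, −0.21 to 0.021, 2.00 to 2.21 and 1.95 to 2.18 for Phf1 minus Mtf2. A dim probe limits the second readings of Phf1 and Mtf2.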
